A study of Mus musculus with 30 samples.

Results

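The comparison described here set the ventral prostate (VP) of mice fed lard against the VP of mice fed soybean oil, after 12 weeks on the diets. It held 10 of the 30 mice that were sequenced, namely the 5 mice labelled PF and the 5 labelled SO at that time point, and every gene counted in them. All were C57BL/6 males that received isocaloric growth diets of the same fat content from weaning onwards, so that the groups differed in the source of the fat. Lard is rich in saturated fatty acids, and soybean oil is rich in ω-6 polyunsaturated fatty acids and is the usual oil of this purified diet, which makes the SO mice the reference here. The remaining diet, with linseed oil (LO, 5 mice at 12 weeks), entered the fit to add to the estimate of the spread and is quoted only as a level. Another 10 mice, 5 on PF and 5 on SO for 32 weeks, were different animals.

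The mouse prostate consists of paired lobes, and the ventral lobe is made of ducts lined by secretory luminal cells over a thin layer of basal cells, in a stroma of smooth muscle, fibroblasts, vessels and resident leukocytes. Its luminal cells secrete large amounts of a few androgen-dependent proteins. Dietary fat can reach such a tissue through the fatty acids it takes up and through circulating and resident immune cells, and saturated fat is known for its link with inflammation of fat tissue and liver.

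The authors counted read pairs per gene, and the counts of a mouse summed to between 30402047 and 40763802 over the PF and SO mice. The 10 most abundant genes took between 24.7% and 35.2% of them. Levels are given as CPM, the counts of a gene relative to the TMM-scaled total of its library and not corrected for gene length, and differences as log2 fold changes of PF minus SO, so that a positive value means a higher level in PF. As a check of the tissue label, Spink1, a secreted protease inhibitor abundant in the ventral lobe, stood between 36880 and 62790 CPM in all 10 mice. Pbsn, which encodes probasin and marks other lobes more strongly, stood at 1898 CPM or above in 9 mice and at 327 CPM in SO mouse 5. Tgm4, a transglutaminase of other lobes, lay between 2.86 and 7.22 CPM in 8 mice but reached 138 CPM in PF mouse 5 and 83.4 CPM in SO mouse 3. RNA came from whole tissue, in which more cells of a type and more RNA per cell cannot be told apart.

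Over all genes, the quasi-likelihood test of edgeR called none of 15873 genes at an adjusted p under 0.05 (0%), and the smallest adjusted p, 0.138, was shared by 72 genes. At an unadjusted p under 0.05, 974 genes were higher in PF (6.14% of the genes tested) and 295 were lower (1.86%). DESeq2 tested 17232 genes and called 218 higher (1.27%) and 7 lower (0.0406%) at an adjusted p under 0.05. The genes called higher had a median log2 fold change of 1.25, whereas the median over all genes tested by edgeR was -0.0148 and 44.8% of genes were above 0. All 5 PF mice stood above all 5 SO mice for 186 genes (1.17%) and below them for 53 genes (0.334%). The plot of fold changes against p shows this asymmetry.

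**Figure D1:**
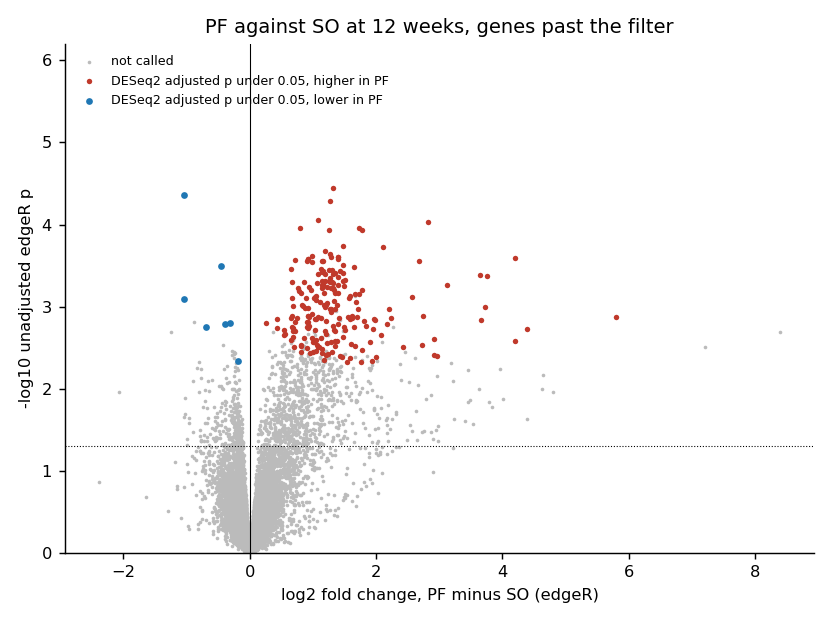
Log2 fold change of PF minus SO at 12 weeks (x axis) against the -log10 of the unadjusted edgeR p (y axis) for each of the 15873 genes tested, with a dotted line at the unadjusted threshold of 0.05. Genes called by DESeq2 are red where higher in PF and blue where lower. Red points are many and blue points few, and 0 genes passed the adjusted threshold in edgeR.

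The mice on lard were not alike, and PF mouse 5 stood nearest to the SO mice for most leukocyte genes. Leaving it out gave 131 genes at an adjusted p under 0.05 in edgeR, 130 of them higher and 1 lower, and 121 of the 131 were among the genes called by DESeq2 with all mice. Leaving out any other PF or SO mouse gave 0 genes in edgeR, with between 924 and 1446 genes at an unadjusted p under 0.05. DESeq2 called 434 genes without PF mouse 5, 65 without PF mouse 2 and 59 without PF mouse 3. The numbers of genes below are therefore read beside the values of each mouse.

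**Figure D2:**
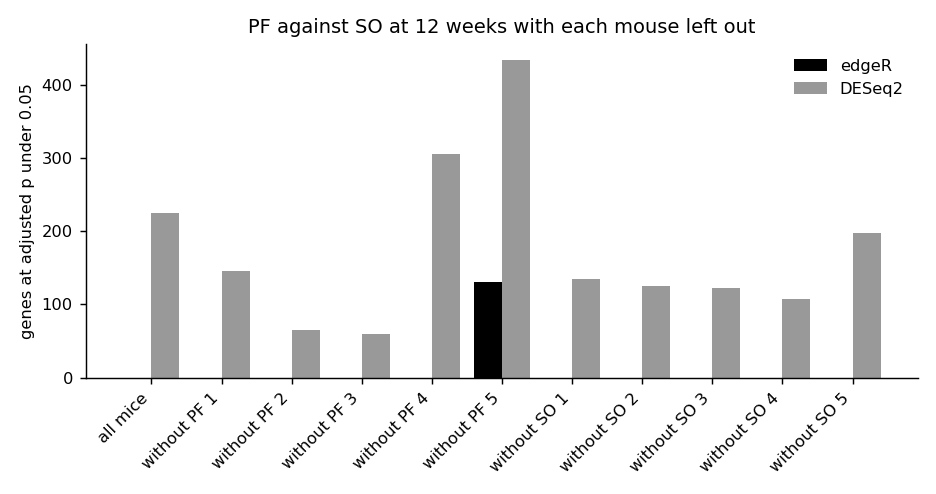
Number of genes with an adjusted p under 0.05 for PF against SO at 12 weeks (y axis) with all mice and with each mouse left out in turn (x axis), in edgeR (black) and DESeq2 (grey). edgeR called 131 genes without PF mouse 5 and 0 in every other case, and DESeq2 ranged from 59 without PF mouse 3 to 434 without PF mouse 5.

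Genes that most leukocytes share were higher in the PF VP as a group. The list of leukocyte signalling genes, which holds receptors, kinases and cytoskeletal proteins found across blood cell lineages, had 24 of 24 genes above 0 with a median log2 fold change of 1.17. Of these, 23 were at an unadjusted p under 0.05 and 16 were called by DESeq2, and in 10 the mice of the diets did not overlap. Ptprc encodes CD45, the phosphatase on the surface of every nucleated blood cell, and lies on chromosome 1 of GRCm38 from 138062861 to 138175708. Its level was 19, 30, 26.3, 13.6 and 10.1 CPM in PF mice 1 to 5 and 6.43, 8.84, 9.27, 7.73 and 8.42 CPM in SO mice 1 to 5. Every PF mouse exceeded every SO mouse, PF mice 2 and 3 by the most and PF mouse 5 by little. The log2 fold change was 1.28 (SE 0.30, edgeR adjusted p = 0.138, DESeq2 adjusted p = 0.00417). Vav1, an exchange factor downstream of antigen and Fc receptors, differed by 1.29 (SE 0.27, DESeq2 adjusted p = 0.0025). Plek, the main kinase C substrate of platelets and leukocytes, differed by 1.16 (SE 0.26, DESeq2 adjusted p = 0.00351).

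Fc receptors and the adaptors that pass on their signal behaved alike. All 13 genes tested of this list were at an unadjusted p under 0.05 on the higher side, with a median of 1.11 on the log2 scale, and DESeq2 called 10 of them. Tyrobp, the DAP12 adaptor of myeloid and natural killer cells, was at 17.6, 12.5, 15.6, 11.1 and 8.14 CPM in PF mice 1 to 5, against 6.59 to 8.12 CPM in SO mice. PF mouse 5 lay just above the highest SO mouse and the other PF mice well above. Fcer1g, the shared gamma chain of Fc receptors, had a log2 fold change of 0.91 (SE 0.19, DESeq2 adjusted p = 0.00351), and Cd300a, an inhibitory receptor, 1.07 (SE 0.20, DESeq2 adjusted p = 0.0025). Of the genes for adhesion of leukocytes to vessel walls, 13 of 13 were above 0 with a median of 1.01, 11 were at an unadjusted p under 0.05 and DESeq2 called 5. Itgb2, the common beta chain of the leukocyte integrins, reached 20.8 CPM in PF mouse 1 and 5.2 CPM in PF mouse 5, which was inside the SO range of 4.1 to 6.61 CPM. Selplg, the selectin ligand, had a log2 fold change of 1.22 (SE 0.28, DESeq2 adjusted p = 0.00489).

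Macrophage markers were higher in 18 of the 19 genes tested, with a median log2 fold change of 0.815. Of these, 13 were at an unadjusted p under 0.05 and 8 were called by DESeq2. Adgre1 encodes F4/80, a surface receptor of mature macrophages. Its level was 14.2, 15.6, 16.6, 10.9 and 9.84 CPM in PF mice 1 to 5 and 4.13, 7.35, 7.29, 7.28 and 7.62 CPM in SO mice 1 to 5. The diets did not overlap, and the log2 fold change was 0.99 (SE 0.21, DESeq2 adjusted p = 0.0025). Fcgr1, the high-affinity IgG receptor, was between 3.16 and 3.74 CPM in PF mice 1 to 4 but at 1.53 CPM in PF mouse 5, below the highest SO mouse at 1.72 CPM. Of 18 lysosomal genes of phagocytes 13 were above 0 with a median of 0.083, 7 were at an unadjusted p under 0.05 and DESeq2 called 2. Ctss, a cathepsin of antigen-presenting cells, had 1.25 (SE 0.27, DESeq2 adjusted p = 0.0025), with 80.2 CPM in PF mouse 1 and 23 CPM in PF mouse 5 against 20.1 to 22 CPM in SO mice. Slc11a1, the metal transporter of phagosomes, had a log2 fold change of 0.93 (SE 0.24, DESeq2 adjusted p = 0.0198).

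Among the 15 genes with the smallest p on the higher side, under a rule that left out unnamed genes and immune receptor segments, were Gpr65, Cd300a, Cd3d, Stat4, Chst11, Cd48, Ms4a6d, Csf2rb, Tespa1, Ly86, Aoah, Adgre1, Plbd1 and Wdfy4. In each of them all PF mice exceeded all SO mice, as in 1.17% of all genes tested. They were picked by their p in these same mice, so the separation is largely a product of the choice and no further support. Gpr65, a proton-sensing receptor of leukocytes, stood at 2.5, 3, 2.73, 1.96 and 1.58 CPM in PF mice 1 to 5 and between 0.823 and 1.13 CPM in SO mice. Its log2 fold change was 1.27 (SE 0.23, unadjusted p = 5.21e-05), and Cd48, an adhesion molecule of leukocytes, had 1.25 (SE 0.24). Csf2rb, the signalling chain shared by the receptors for GM-CSF, IL-3 and IL-5, had 1.48 (SE 0.30) and is very similar to its neighbour Csf2rb2, so its counts are uncertain. Ms4a6d belongs to a family of near-identical genes too and had 1.78 (SE 0.35). Ly86, the partner of the receptor CD180, had 1.19 (SE 0.25), Aoah, an enzyme that detoxifies endotoxin, 1.27 (SE 0.27), Plbd1, a lysosomal lipase of myeloid cells, 1.39 (SE 0.29), and Wdfy4, needed for cross-presentation by dendritic cells, 1.40 (SE 0.29). Chst11, a chondroitin sulfotransferase, had the smallest difference of those named, 0.80 (SE 0.16).

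Of the subunits and relatives of the oxidase with which phagocytes make superoxide, 7 of 8 genes were above 0, 4 were at an unadjusted p under 0.05 and DESeq2 called 3, with a median of 0.588. Of the cytosolic subunits, Ncf1 differed by 1.15 (SE 0.27, DESeq2 adjusted p = 0.00489) and Ncf4 by 1.25 (SE 0.28, DESeq2 adjusted p = 0.00715). The membrane subunit Cybb had 0.62 (SE 0.18, DESeq2 adjusted p = 0.0578), and PF mouse 5 at 9.84 CPM was within the SO range of 9.07 to 11.4 CPM.

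T cell markers were low in the VP of both diets and higher in PF. Of 20 markers 17 passed the filter on low counts, Cd6, Cd8b1 and Foxp3 did not, 16 of the 17 were above 0 with a median of 1.51, 13 were at an unadjusted p under 0.05, and DESeq2 called 4. The filter asks for a minimum level in as many mice as a diet holds. A marker nearly absent from SO mice, such as Cd3d here or Ccr7 below, could pass through the PF mice, which favours the higher side. Counts above 0 and medians of this and the B cell, dendritic cell and neutrophil lists are therefore descriptions and no support for a difference. Cd3d, a chain of the T cell receptor complex on chromosome 9 from 44981786 to 44987339, was at 0.563, 1.43, 0.641, 0.706 and 0.361 CPM in PF mice 1 to 5. In SO mice 1 to 5 it was at 0.0945, 0.0593, 0.126, 0.118 and 0.11 CPM. The diets did not overlap and the log2 fold change was 2.83 (SE 0.54, unadjusted p = 9.43e-05, DESeq2 adjusted p = 0.0025), although the SO levels rest on few read pairs. Cd3e, the neighbouring chain, differed less, at 0.91 (SE 0.44, unadjusted p = 0.0568), since SO mice lay between 0.147 and 0.631 CPM and overlapped the PF mice. Stat4, the transcription factor activated by IL-12, had 1.72 (SE 0.33, DESeq2 adjusted p = 0.00351), and Tespa1, a protein of early thymocyte signalling, 2.11 (SE 0.43, DESeq2 adjusted p = 0.0107). The mean log2 CPM of the T cell list exceeded the SO mean by 1.38, 2.01, 1.25, 1.28 and 0.35 in PF mice 1 to 5, and even PF mouse 5 exceeded every SO mouse. Without PF mouse 2 or SO mouse 4 the markers at an unadjusted p under 0.05 numbered 9, and without SO mouse 2 they numbered 10.

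Most markers of natural killer cells and of dendritic cells were higher too. All 10 natural killer genes tested were above 0 with a median of 0.846, and 9 were at an unadjusted p under 0.05, with 1 called by DESeq2. Prf1 and Eomes did not pass the filter. Ncr1, the first member of the list, had 0.84 (SE 0.39, DESeq2 adjusted p = 0.623). Its levels of 0.439, 0.235 and 0.445 CPM in PF mice 3 to 5 were inside the SO range of 0.206 to 0.505 CPM. Il2rb, the receptor chain for IL-2 and IL-15, was at 6.43 CPM in PF mouse 4 and between 3.36 and 4.23 CPM in the other PF mice, against 1.77 to 2.96 CPM in SO. Klrd1, which encodes CD94, had a log2 fold change of 1.14 (SE 0.32, DESeq2 adjusted p = 0.0534). Of 12 dendritic cell markers 11 were above 0 with a median of 0.942, 9 were at an unadjusted p under 0.05 and DESeq2 called 4. Those called included Ccr7, the receptor that guides dendritic cells to lymph nodes, with 0.759, 2, 1.11, 1.07 and 0.528 CPM in PF mice 1 to 5 and at most 0.247 CPM in SO mice. Its log2 fold change was 2.74 (SE 0.70, DESeq2 adjusted p = 0.0121). Ccl22, a chemokine of mature dendritic cells, had 2.67 (SE 0.57, DESeq2 adjusted p = 0.0025), although PF mouse 5 at 0.333 CPM was below SO mouse 1 at 0.378 CPM. Flt3, the growth factor receptor of dendritic cell precursors, had 0.61 (SE 0.24, DESeq2 adjusted p = 0.315). For neutrophils the data say little, as 3 of 11 markers passed the filter, and Retnlg, a secreted protein of neutrophils, had 2.19 and 1.72 CPM in PF mice 2 and 3 and at most 0.306 CPM in the other 8 mice. Only 1 of the 8 mast cell markers tested was at an unadjusted p under 0.05.

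The B lineage differed from the T cells in resting on PF mice 2 and 3. All 9 B cell markers tested were above 0 with a median log2 fold change of 2.19 and 8 were at an unadjusted p under 0.05, but DESeq2 called 1, and no marker separated the diets. Ms4a1, which encodes CD20, was at 0.881, 6.17, 7.22, 0.261 and 0.639 CPM in PF mice 1 to 5 and between 0.0295 and 0.536 CPM in SO mice. PF mice 2 and 3 were far above the rest, and PF mouse 4 was inside the SO range. The log2 fold change was 3.19 (SE 0.97, DESeq2 adjusted p = 0.0612). Fcrla, a protein of the B cell secretory pathway, was the member called by DESeq2 (adjusted p = 0.0464), with 1.1, 2.62 and 2.29 CPM in PF mice 1 to 3 and at most 0.445 CPM in the other 7 mice. Without PF mouse 2, 2 B cell markers were at an unadjusted p under 0.05, and without PF mouse 3 there were 4.

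Immunoglobulin followed the same mice. Ighm, the constant region of IgM on chromosome 12 from 113418558 to 113422730, was at 356, 2158, 4126, 112 and 149 CPM in PF mice 1 to 5 and at 133, 175, 181, 200 and 227 CPM in SO mice 1 to 5. PF mouse 3 had the highest level and PF mouse 4 the lowest of all 10 mice, so that the mean of 1380 ± 1755 CPM (SD, n = 5) in PF describes no single animal. The log2 fold change was 2.91 (SE 0.81, DESeq2 adjusted p = 0.0104). Jchain, which joins IgM and IgA into polymers, stood at 335 and 413 CPM in PF mice 2 and 3 and between 10.6 and 44.8 CPM in the other 8 mice, and had 2.73 (SE 0.77, DESeq2 adjusted p = 0.0365). Igha, the constant region of IgA, which is named after its values were seen, had its highest level of 129 CPM in PF mouse 2 and not in PF mouse 3, which was at 20 CPM. Of 11 plasma cell genes 11 were above 0 with a median of 2.40 and 7 were at an unadjusted p under 0.05. Immunoglobulin genes have many near-identical copies, and read pairs that fitted several places were not counted, so these levels are uncertain. Ly6c2, a marker of inflammatory monocytes, also stood apart in PF mice 2 and 3, at 10.2 and 26.6 CPM against at most 1.35 CPM in the other 8 mice. Its log2 fold change was 3.73 (SE 0.92, DESeq2 adjusted p = 0.00489), and it is nearly identical to Ly6c1. Ly6d, listed here for urethral epithelium and known also from B cell precursors, was at 6.81 and 6.48 CPM in PF mice 2 and 3 and at most 2.77 CPM elsewhere.

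**Figure D3:**
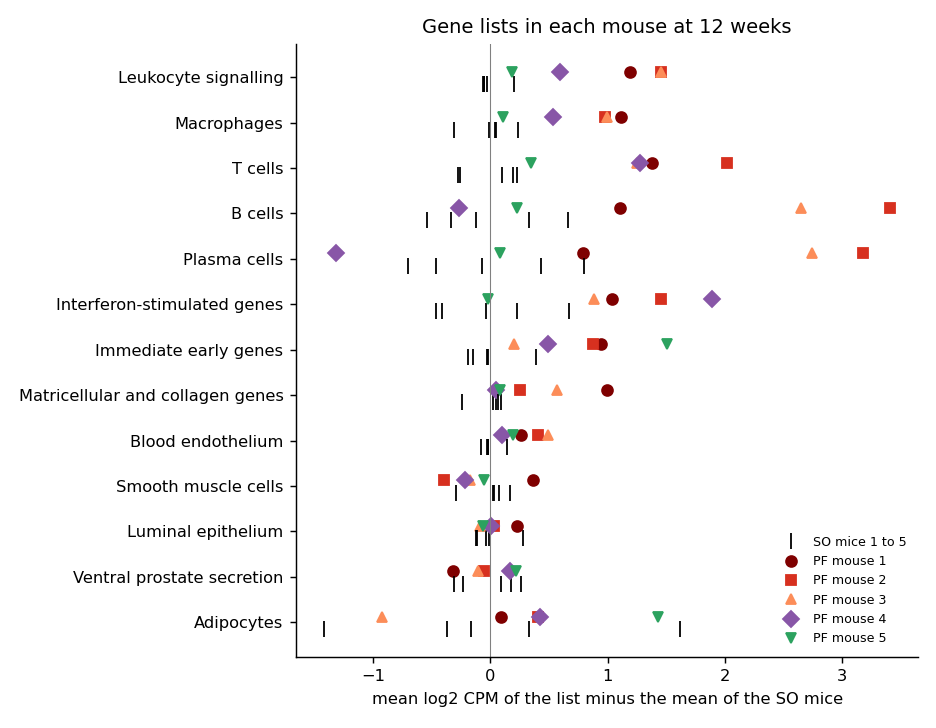
Mean log2 CPM of 13 gene lists (rows) in each mouse at 12 weeks, minus the mean of the 5 SO mice (x axis). Black ticks are SO mice and coloured symbols the PF mice 1 to 5. PF mice 2 and 3 lead in the B and plasma cell lists, PF mouse 4 in the interferon-stimulated genes and PF mouse 5 in the immediate early genes, while smooth muscle, luminal and secretory lists overlap.

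Genes that interferons induce were higher in 4 of the PF mice. All 25 interferon-stimulated genes were above 0 with a median log2 fold change of 1.15, and 20 were at an unadjusted p under 0.05. DESeq2 called 1, Ifi27, a small membrane protein induced by type I interferon, and in none of the 25 did the diets separate. Ifi27 was at 107, 190, 135, 142 and 61 CPM in PF mice 1 to 5 and at 79.1, 75.6, 49.4, 52.4 and 54.8 CPM in SO mice 1 to 5. PF mice 1 to 4 were above every SO mouse and PF mouse 5 was inside their range. The log2 fold change was 1.03 (SE 0.27, DESeq2 adjusted p = 0.0122). Irf9, a transcription factor of the type I response, had 0.84 (SE 0.26, DESeq2 adjusted p = 0.0578).

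PF mouse 4, which was near the SO mice for B cell genes, led here. The list stood above the SO mean by 1.89 on the log2 scale in PF mouse 4, by 1.04, 1.45 and 0.881 in PF mice 1 to 3 and by -0.0196 in PF mouse 5. Without PF mouse 4, 11 of the list were at an unadjusted p under 0.05, without PF mouse 2 12 and without SO mouse 5 13. Ifit3, an antiviral protein, reached 89 CPM in PF mouse 4 and was between 6.97 and 27.8 CPM in the other PF mice and between 6.12 and 20.4 CPM in SO mice. Among LO mice it ranged from 7.9 to 201 CPM, so such levels were not limited to lard. Ifit3 and the genes in the next lines are members of the list that were named after their values were seen.

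Many of these genes carry the element to which the STAT and IRF factors of the interferon response bind. In the RefSeq promoters of GRCm38.p6, searched over 250 bases before the gene's start and 50 after, the letters GAAA, any 2 bases and GAAA again were present on either strand in 12 of the 21 list genes that had a promoter (57.1%), against 452 of all 11608 genes with a promoter (3.89%). The 12 genes that held the element had a median log2 fold change of 1.11 and the 9 others 1.38. The element was shown because its share stood out among 13 motifs searched in 7 lists. Stretches that end at or before the gene's start are printed 5′ to 3′ on the strand of the gene, for the 4 list genes with the smallest p that held the element and for Ifit1 and Isg15. Capitals mark every match to the element in the stretch, of which there are 3 overlapping ones in Isg15, 2 overlapping ones in Gbp3 and Oas1a, 2 separate ones in Ifit1 and 1 in the other genes, and coordinates and strand are given with each name.
Gbp3, a guanylate-binding protein, chr3:142559959-142560043, plus strand: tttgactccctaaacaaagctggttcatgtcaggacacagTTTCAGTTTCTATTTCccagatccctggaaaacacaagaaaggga
Oas1a, a sensor of double-stranded RNA, chr5:120907526-120907585, minus strand: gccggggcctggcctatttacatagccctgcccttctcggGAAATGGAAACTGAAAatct
Igtp, an immunity-related GTPase, chr11:58199482-58199555, plus strand: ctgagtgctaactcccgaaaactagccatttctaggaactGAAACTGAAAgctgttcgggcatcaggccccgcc
Stat2, a transcription factor of the type I response, chr10:128270248-128270325, plus strand: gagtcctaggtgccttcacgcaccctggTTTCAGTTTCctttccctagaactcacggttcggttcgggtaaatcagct
Ifit1, a sensor of viral RNA caps, chr19:34640745-34640834, plus strand: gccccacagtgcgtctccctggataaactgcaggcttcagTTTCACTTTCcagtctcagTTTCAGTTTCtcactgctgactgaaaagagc
Isg15, a ubiquitin-like protein, chr4:156200847-156200936, minus strand: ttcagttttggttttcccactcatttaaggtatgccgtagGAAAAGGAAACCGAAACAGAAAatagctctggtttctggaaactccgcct
Such a match describes the letters and is no proof of a site. Ifit1 stood at 46.2, 77.5, 42.8, 181 and 22.1 CPM in PF mice 1 to 5 and at 50.4, 30.3, 27.6, 14.8 and 12.5 CPM in SO mice 1 to 5, and PF mouse 4 was far above the rest. Igtp showed the same order at its top, with 38.8 CPM in PF mouse 4, but was at 8.86 CPM in PF mouse 5 and between 7.05 and 13.1 CPM in SO mice. Oas1a had its top in PF mouse 2 instead, at 35 CPM. The log2 fold changes were 1.45 (SE 0.67) for Ifit1, 1.12 (SE 0.43) for Igtp, 1.15 (SE 0.43) for Oas1a, 1.18 (SE 0.44) for Gbp3, 0.57 (SE 0.23) for Stat2 and 1.35 (SE 0.68) for Isg15, and DESeq2 called none of the 6.

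The same element was present in 1 of 20 leukocyte signalling promoters (5%) and 1 of 11 of the Fc receptor list (9.09%), against 3.89% of all promoters. None of the T cell, macrophage, leukocyte adhesion and immediate early promoters held it. Other letters stood out in the search too. TGACTCA was in 6 of 21 interferon-stimulated promoters (28.6%, against 4.72% of all). CANGTG, with N for any base, was in 9 of 9 T cell promoters (100%, against 44.9% of all). The letters GAGGAAGT, bound by the myeloid factor PU.1, were present in 4 of 20 leukocyte signalling promoters (20%) and in 3 of 11 promoters of the Fc receptor list (27.3%), against 3.71% of all promoters. They were in 1 of 14 macrophage promoters (7.14%), 1 of 9 T cell promoters (11.1%) and 1 of 7 leukocyte adhesion promoters (14.3%). The overlapping letters AGGAAGTG were in 3 of 9 T cell promoters (33.3%) and 3 of 14 macrophage promoters (21.4%), against 5.1% of all promoters. No myeloid pattern is read from these shares. These counts are small and describe the windows alone.

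Immediate early genes, which are transcribed within minutes of a stimulus or of handling of the tissue, were ordered differently among the mice. All 19 tested were above 0 with a median log2 fold change of 0.876, 11 were at an unadjusted p under 0.05, and DESeq2 called none. Here PF mouse 5 was the highest, 1.5 above the SO mean on the log2 scale, while PF mouse 3 was only 0.204 above it, inside the SO range. Jun, a subunit of AP-1 on chromosome 4 from 95049034 to 95052222, was at 32, 78, 33.1, 61.4 and 92.5 CPM in PF mice 1 to 5 and at 24.6, 13.8, 37.8, 23.2 and 25.1 CPM in SO mice 1 to 5. PF mice 1 and 3 were below SO mouse 3, so the diets overlapped. The log2 fold change was 1.26 (SE 0.41, edgeR adjusted p = 0.296, DESeq2 adjusted p = 0.167). Fos, its partner, was at 17.5, 8.65, 3.95, 3.74 and 13.7 CPM in PF mice 1 to 5 and between 1.2 and 6.21 CPM in SO mice, so that PF mice 3 and 4 were inside the SO range. Klf2, a flow-responsive factor of endothelium and lymphocytes, had 0.71 (SE 0.23). Atf3, a stress-induced factor named after its values were seen, spanned 14.5 to 139 CPM among PF mice and 7.65 to 38.5 CPM among SO mice. In LO mice Jun ranged from 31.9 to 163 CPM and Atf3 from 8.36 to 287 CPM, wider than in either of the other diets. Without PF mouse 5, 6 of the list were at an unadjusted p under 0.05, and without SO mouse 4 there were 7.

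**Figure D4:**
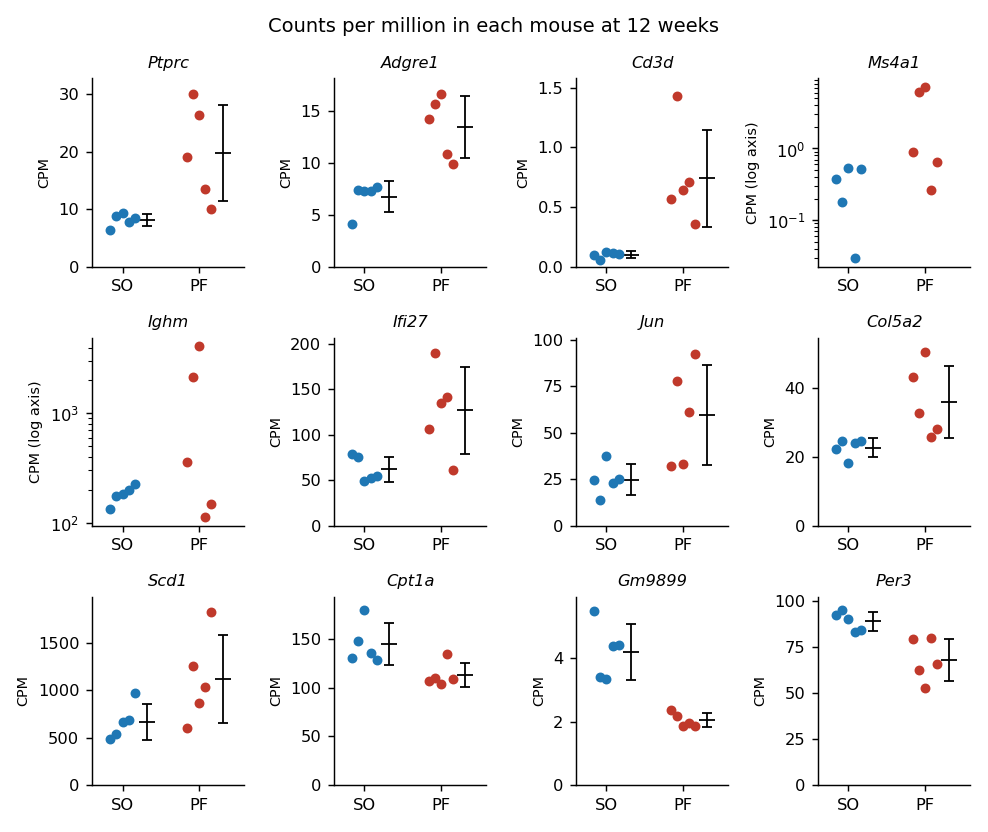
Levels of 12 genes in CPM (y axes, from 0 except for log axes in Ms4a1 and Ighm) in each of the 5 SO mice (blue) and 5 PF mice (red) at 12 weeks. Points run from mouse 1 to mouse 5, and bars beside them give the mean ± SD except on log axes. The diets separate for Ptprc, Adgre1, Cd3d, Col5a2, Gm9899 and Per3, while Ms4a1 and Ighm are high in PF mice 2 and 3.

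Of 23 genes for the synthesis and sensing of prostaglandins and leukotrienes, which are made from arachidonic acid, 18 were above 0 with a median of 0.321, 5 were at an unadjusted p under 0.05 (8 without PF mouse 4) and DESeq2 called 2. Those were Tbxas1, the thromboxane synthase, with 5.48, 4.03, 4.15, 3.45 and 2.36 CPM in PF mice 1 to 5 against 1.54 to 1.96 CPM in SO mice, and Pla2g7, which degrades platelet-activating factor. In both of them the diets did not overlap. Tbxas1 differed by 1.14 (SE 0.25, DESeq2 adjusted p = 0.0042) and Pla2g7 by 0.54 (SE 0.14, DESeq2 adjusted p = 0.0333). Ptgs1, the constitutive cyclooxygenase that supplies Tbxas1 with its substrate, was at 0.01 (SE 0.26), with 6.09 to 10.8 CPM in PF and 5.42 to 10.7 CPM in SO. Of 22 cytokine genes 14 passed the filter, 13 were above 0 with a median of 0.273, 5 were at an unadjusted p under 0.05 and DESeq2 called 1, Il1b. Without PF mouse 1, PF mouse 2, SO mouse 1 or SO mouse 2 the 5 became 3. Il1b, the inflammatory cytokine interleukin 1 beta, was at 1.52, 5.35, 2.09, 2.67 and 3.44 CPM in PF mice 1 to 5 and at 0.252, 0.474, 2.11, 0.737 and 0.85 CPM in SO mice 1 to 5. SO mouse 3 stood among the PF mice, so the diets overlapped, and the log2 fold change was 1.77 (SE 0.54, DESeq2 adjusted p = 0.0409). Csf1, the growth factor of macrophages, had 0.37 (SE 0.13, DESeq2 adjusted p = 0.211), with 14.5 CPM in PF mouse 5 and 17.8 to 23.5 CPM in the other PF mice against 13.2 to 16.8 CPM in SO. Ifng, Il4, Il6, Il10, Il13, Il17a, Csf2 and Csf3 did not pass the filter, and differences in them were not detectable at this depth.

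Stromal genes differed by less than leukocyte genes. All 16 fibroblast markers were above 0, with a median log2 fold change of 0.313, but 3 were at an unadjusted p under 0.05 (5 without SO mouse 4, 6 without SO mouse 5) and DESeq2 called none. C3, the complement component, was at 130, 269, 387, 86 and 79.7 CPM in PF mice 1 to 5 and between 44.8 and 121 CPM in SO mice, and Lum, a proteoglycan that binds collagen fibrils, had 0.93 (SE 0.34, DESeq2 adjusted p = 0.157). Pdgfra, which defines fibroblasts, had 0.15 (SE 0.16). Among 25 collagen and matricellular genes 24 were above 0, with a median of 0.388. Of these, 9 were at an unadjusted p under 0.05 (5 without PF mouse 1) and 1, Col5a2, was called by DESeq2. Col5a2, a fibrillar collagen chain on chromosome 1 from 45374321 to 45503282, was at 43.2, 32.8, 50.5, 25.8 and 28.1 CPM in PF mice 1 to 5 and at 22.3, 24.6, 18.2, 23.9 and 24.7 CPM in SO mice 1 to 5. Every PF mouse was above every SO mouse, PF mouse 4 by the least, and the log2 fold change was 0.66 (SE 0.18, DESeq2 adjusted p = 0.0309). Col3a1, the reticular collagen, had 0.80 (SE 0.24, DESeq2 adjusted p = 0.0545), while Col1a1, the main collagen of scars, had 0.42 (SE 0.33). Spp1, osteopontin, was named after its values were seen because 133 CPM in PF mouse 1 stood against 1.45 to 7.59 CPM in the other 9 mice.

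Vessel markers were slightly higher and smooth muscle was not. All 14 markers of blood endothelium were above 0 with a median of 0.34, 6 were at an unadjusted p under 0.05 and DESeq2 called none. The 6 became 2 without PF mouse 2, PF mouse 3 or SO mouse 2 and 3 without PF mouse 1 or SO mouse 1, 3 or 4. Pecam1, the junctional molecule CD31, was between 16.4 and 26.7 CPM in PF and between 11.8 and 16.5 CPM in SO mice, with a log2 fold change of 0.50 (SE 0.16, DESeq2 adjusted p = 0.106), and Emcn, a sialomucin of capillaries, had 0.54 (SE 0.19). Of 7 lymphatic markers 7 were above 0 with a median of 0.402, 3 were at an unadjusted p under 0.05 (1 without PF mouse 3 or SO mouse 1) and DESeq2 called none. Prox1, the factor that defines lymphatic vessels, was at 2.11 and 1.65 CPM in PF mice 2 and 3 and between 0.392 and 0.713 CPM in the other 8 mice, so that the mice with the most B lineage RNA also had the highest Prox1. Lyve1, a hyaluronan receptor of lymphatics and some macrophages, had 0.68 (SE 0.23). Of 11 smooth muscle markers 1 was above 0, with a median of -0.0747 and no gene at an unadjusted p under 0.05, and Myh11, the smooth muscle myosin, had -0.17 (SE 0.12). The 7 pericyte markers had a median of 0.145.

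Luminal epithelial genes had a median fold change close to 0. Most basal markers lay above it, but none of either list was at an unadjusted p under 0.05. Of 13 luminal markers 3 were above 0, the median was -0.0382 and the members lay between -0.163 and 0.297, none of them at an unadjusted p under 0.05. Krt8, the luminal keratin, had 0.13 (SE 0.14), and Foxa1, the cofactor of the androgen receptor, -0.16 (SE 0.12). Basal markers had 8 of 9 genes above 0 and a median of 0.257, with Krt5 at 0.23 (SE 0.18) and Krt14 at 0.53 (SE 0.28). DESeq2 called 0 of them, and in the other mice at 32 weeks 0 of 9 were above 0. Of 6 ventral secretory products 1 was above 0. The lowest was 5430419D17Rik, an abundant product of this lobe, with 6383, 5172, 4884, 4988 and 5313 CPM in PF mice 1 to 5 and 5661, 7086, 7365, 6950 and 7625 CPM in SO mice 1 to 5. PF mouse 1 and SO mouse 1 made the diets overlap, and the log2 fold change was -0.38 (SE 0.14, unadjusted p = 0.0145, DESeq2 adjusted p = 0.215). Spink1 was at -0.07 (SE 0.16). Of the androgen-regulated genes 4 of 14 were above 0 with a median of -0.0423, and of the polyamine genes 4 of 10 with a median of -0.0419.

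Some lists measure tissue that adjoins the gland. Adipocyte genes had a median of -0.183 with all mice, of 0.751 without SO mouse 5 and of 0.025 without PF mouse 3. Adipoq, the hormone of fat cells, ranged from 8.23 to 32.1 CPM in PF and from 5.78 to 66.8 CPM in SO mice, with the top in SO mouse 5. Skeletal muscle genes had a median of 0.673 with all mice and of -0.223 without PF mouse 5. Ckm, the creatine kinase of muscle, was at 7.03 and 4.06 CPM in PF mice 5 and 2, at 3.44 and 3.28 CPM in SO mice 3 and 1 and at most 0.906 CPM in the rest. PF mouse 5, which stood nearest to the SO mice for leukocyte genes, thus had the highest muscle, adipocyte and immediate early lists of the PF mice and the highest Tgm4. The part of adjoining tissue in its values was not tested.

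The lists of fatty acid synthesis and desaturation, of fatty acid uptake and oxidation and of cholesterol synthesis and uptake held no gene called by either test. Of 20 genes of fatty acid synthesis and desaturation 17 were above 0 with a median of 0.115, and 2 were at an unadjusted p under 0.05. Scd1, the desaturase that turns saturated into monounsaturated fatty acids, lies on chromosome 19 from 44394455 to 44407879. Its level was 605, 1254, 869, 1033 and 1826 CPM in PF mice 1 to 5 and 482, 537, 661, 689 and 968 CPM in SO mice 1 to 5. PF mouse 5 was the highest, PF mice 1 and 3 lay within the SO range, and the log2 fold change was 0.74 (SE 0.32, unadjusted p = 0.0358, DESeq2 adjusted p = 0.555). Elovl6, which elongates saturated fatty acids, was at 19.4 CPM in PF mouse 5 and between 3.29 and 6.81 CPM in the other PF mice, against 2.49 to 4.1 CPM in SO mice. Its log2 fold change was 1.27 (SE 0.43, DESeq2 adjusted p = 0.0887). Without PF mouse 5 no gene of the list was on the higher side at an unadjusted p under 0.05, without PF mouse 2 or SO mouse 2, 3 or 4 there was 1, and without SO mouse 5 there were 4. Fasn, the fatty acid synthase, had 0.38 (SE 0.27). Cholesterol genes had 16 of 20 above 0 with a median of 0.106 and none at an unadjusted p under 0.05.

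Genes for uptake and oxidation of fatty acids were more often below 0, with 7 of 24 above 0 and a median of -0.0663. Of all genes, 44.8% were above 0, with a median of -0.0148. At an unadjusted p under 0.05, 2 genes of the list were higher and 2 lower, so no direction is read from it. Cpt1a, the gatekeeper of entry into mitochondria, on chromosome 19 from 3322334 to 3385733, was at 106, 110, 103, 135 and 109 CPM in PF mice 1 to 5 and at 131, 148, 180, 136 and 128 CPM in SO mice 1 to 5. All PF mice but mouse 4 lay below all SO mice, and the log2 fold change was -0.36 (SE 0.11, unadjusted p = 0.00533, DESeq2 adjusted p = 0.0986). LO mice were between 130 and 175 CPM. Fabp5, a fatty acid carrier of macrophages, endothelium and epithelium, was on the higher side at 0.60 (SE 0.18, DESeq2 adjusted p = 0.0724), with the highest levels of 26.1 and 23.1 CPM in PF mice 2 and 1.

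Genes of the unfolded protein response were slightly higher, with 17 of 20 above 0 and a median of 0.127, and 2 were at an unadjusted p under 0.05 (0 without SO mouse 1 or 4, 4 without SO mouse 5). Those were Hspa5, the chaperone BiP, at 0.34 (SE 0.14, DESeq2 adjusted p = 0.408) and Ddit3, the factor CHOP, at 1.13 (SE 0.52, DESeq2 adjusted p = 0.555). DESeq2 called 0 genes of this list. Ddit3 was at 12, 17.8, 12, 29.8 and 42.2 CPM in PF mice 1 to 5, against 7.57 to 15.8 CPM in SO mice. PF mice 1 and 3 were thus inside the SO range, and LO mice ranged from 11.9 to 89.6 CPM. Of 26 cell division genes 20 were above 0 with a median of 0.0707, none was at an unadjusted p under 0.05, and Mki67 ranged from 13.3 to 26.2 CPM in PF and from 8.47 to 26.6 CPM in SO mice. Of 20 genes of antioxidant defence 4 were above 0 with a median of -0.0766. Hmox1, the heme oxygenase, had 0.74 (SE 0.23) with 11.6 CPM in PF mouse 1, and Sod2, the mitochondrial dismutase, -0.13 (SE 0.06). Of 12 mitochondrially encoded genes 4 were above 0.

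Few genes were lower in PF. DESeq2 called 7, among them Per3, Slc22a23, Kcnk3, Gm9899, Krtap17-1 and Cmtm4, with a median log2 fold change of -0.457. Per3, a period protein of the circadian clock on chromosome 4 from 151003652 to 151044665, was at 79.2, 62.2, 52.4, 79.7 and 65.8 CPM in PF mice 1 to 5 and at 92.3, 95.3, 90, 83.2 and 84.3 CPM in SO mice 1 to 5. The diets did not overlap, although PF mice 1 and 4 came close to the lowest SO mouse, and it had -0.39 (SE 0.10, DESeq2 adjusted p = 0.0357).

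Kcnk3, a potassium leak channel, had -0.69 (SE 0.18, DESeq2 adjusted p = 0.0254), with 332 to 548 CPM in PF and 465 to 884 CPM in SO mice. Gm9899, a gene without a given function, runs on the opposite strand of chromosome 5 from 30573987 to 30588619, past the start of Kcnk3 at 30588170. It was at 2.37, 2.16, 1.85, 1.96 and 1.86 CPM in PF mice 1 to 5 and between 3.34 and 5.48 CPM in SO mice, without overlap, and had -1.04 (SE 0.18, DESeq2 adjusted p = 0.000953). Whether the counting used the strand is not given in the sources used here, so reads where they overlap cannot be told apart. Krtap17-1, a keratin-associated protein, had -1.04 (SE 0.25), Slc22a23, an organic ion transporter of unknown substrate, -0.32 (SE 0.08), and Cmtm4, a membrane protein that stabilizes PD-L1, -0.18 (SE 0.05).

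The other genes among the 15 smallest p-values on the lower side, Cpt1a among them, were not called by DESeq2. Fam189a1, Zfp697, Stk35, Fcnaos and Zfp759 had all PF mice below all SO mice, as in 0.334% of all genes tested. Picked by their p in these same mice, they gain no further support from this. Zfp759 and Zfp697 are zinc finger genes and had -0.43 (SE 0.12) and -0.24 (SE 0.07), Stk35, a nuclear kinase, -0.24 (SE 0.07), and Fam189a1 -0.27 (SE 0.08). Fcnaos, an antisense transcript of Fcna, was at most 0.216 CPM in PF and at least 0.302 CPM in SO mice and had -1.25 (SE 0.34). Pdp2, the phosphatase that activates pyruvate dehydrogenase, had -0.29 (SE 0.08), Setd7, a lysine methyltransferase, -0.22 (SE 0.07), and Zkscan3, another zinc finger gene, -0.26 (SE 0.08). Apart from Cpt1a, their DESeq2 adjusted p-values ran from 0.0667 for Zfp759 to 0.168 for Fcnaos.

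In the other mice, killed after 32 weeks on the diets, most leukocyte lists had medians below 0, by differing amounts. Of the 218 genes called higher by DESeq2 at 12 weeks, 36 were above 0 at 32 weeks, with a median log2 fold change of -0.252, whereas 45.6% of all 16605 genes were above 0 with a median of -0.0228. Only 2 of the 218 were at an unadjusted p under 0.05 in the same direction at 32 weeks, where 5.4% of all genes were. None of the 17 T cell, 9 B cell, 24 leukocyte signalling and 25 interferon-stimulated genes was above 0 at 32 weeks. Their medians were -0.612, -0.772, -0.335 and -0.537. Ptprc had -0.43 (unadjusted p = 0.231) and Cd3d -0.61 (unadjusted p = 0.23), and Il2rb had -0.93 (unadjusted p = 0.00147). Macrophage genes, with 8 of 19 above 0 and a median of -0.0424, and monocyte genes, with 3 of 7 and -0.0318, were near the values of all genes. Both eosinophil genes tested were above 0, with a median of 0.525. Plasma cell genes were above 0 in 10 of 11, with a median of 0.542.

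A test of the change in the PF minus SO difference between the time points called none of 16605 genes in edgeR (0%), with 1576 at an unadjusted p under 0.05 and a smallest adjusted p of 0.158. DESeq2 called 44. For the genes picked at 12 weeks this change is no independent measurement, because a value chosen for its height tends to be lower in other mice. Other lists had their higher medians at 32 weeks. Adipocyte genes had 12 of 13 above 0 with a median of 1.81, red blood cell genes 5 of 5 with a median of 2.46, and genes of the unfolded protein response 20 of 20 with a median of 0.266. Immediate early genes were above 0 at both times, with 18 of 19 and a median of 0.532 at 32 weeks. Scd1 was also above 0 at both, with 1.25 at 32 weeks (unadjusted p = 0.00111). Of the 7 lower genes, 6 were below 0 at 32 weeks too, and Per3 had the same value of -0.39 (unadjusted p = 0.00333).

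**Figure D5:**
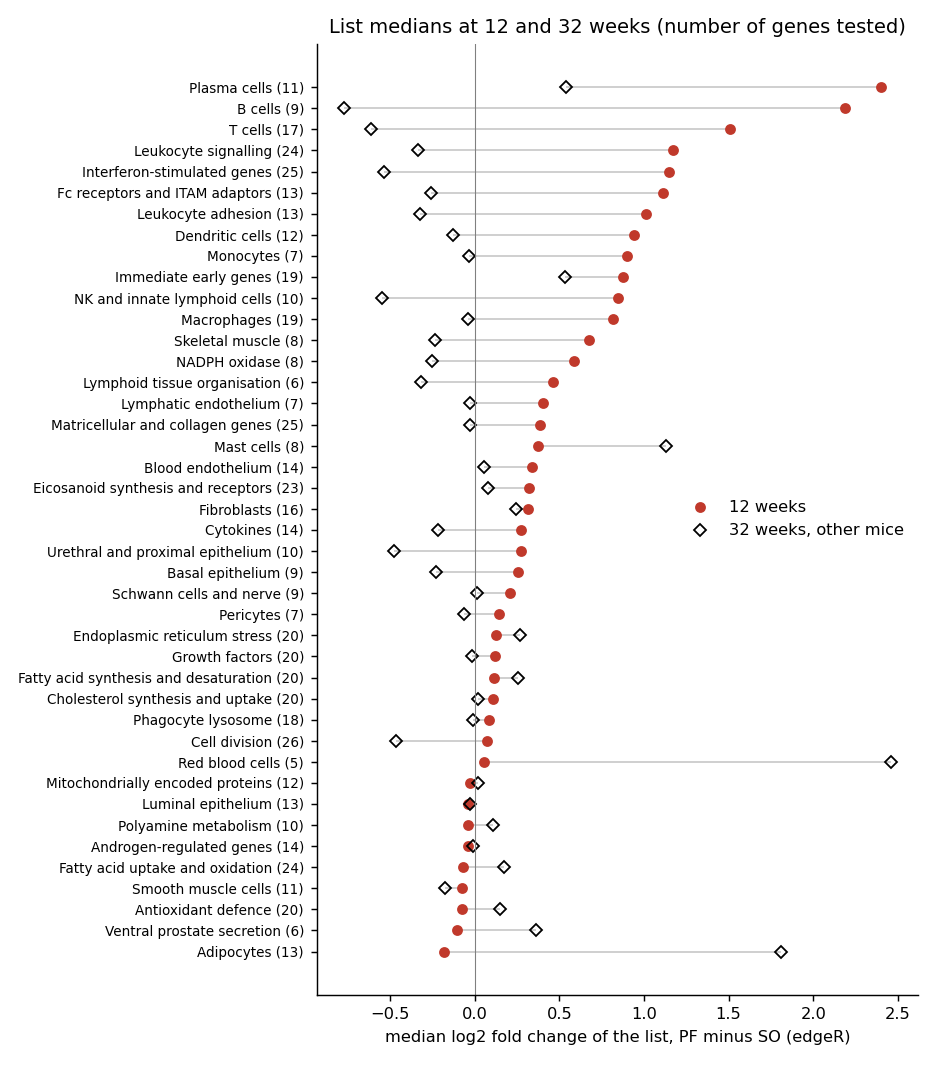
Median log2 fold change of PF minus SO (x axis) for each list with at least 5 genes tested (rows, number of genes in parentheses) at 12 weeks (red circles) and in other mice at 32 weeks (open diamonds). Leukocyte and interferon lists lie to the right of 0 at 12 weeks and mostly to the left at 32 weeks, macrophages and monocytes only barely. Adipocyte and red blood cell lists lie to the right at 32 weeks.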

How the data were processed

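Total RNA of the VP was made into stranded mRNA libraries and sequenced, and per the labels the authors used TopHat2, HTSeq and DESeq2 with the genome build GRCm38.p6, no versions being given. They deposited raw counts of read pairs per gene for each mouse, without normalization. Pairs that fitted no gene (8.92 to 11.5% of the total) or several places (16.1 to 19%) were kept out of library sizes and tests. Of 39179 gene identifiers, 37607 had a symbol in GENCODE M21. The annotation behind the counts is not given in the sources used here.

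Groups and mouse numbers came from the sample labels. All 15 mice at 12 weeks entered one fit of edgeR 4.0.16 (R 4.3.3), after its filter on low counts with diet as the group and TMM scaling, and PF was set against SO by the quasi-likelihood test, two-sided. Adjustment followed Benjamini and Hochberg, at a threshold of 0.05, and the SE was derived from the F statistic. The change between 12 and 32 weeks was fitted over all 30 mice. DESeq2 1.42.0 was the first alternative. List values average the log2 CPM of the members (prior count 2), and lists are described by counts and medians without a test. The 46 lists, the comparison and the rule for named genes were chosen with earlier results of these data known. The rule took the 15 genes with the smallest edgeR p in each direction, the first member and the 2 members with the smallest p of each list, and all genes of a direction with few calls. Some genes that the rule names are not reported here. The scripts were tested on simulated counts. Mice of a diet differed by more than sampling noise in each of 20 pairs, with a chi-square of at least 23.9 per degree of freedom. No source says that mice were housed or processed separately. The p-values set a difference against the spread between mice of a group, estimated over all mice in the fit, LO included. Had the mice of a diet shared a cage, they could not tell diet from cage.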

Additional observations from a re-analysis of the deposited data

Results flagged for a closer look

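Among 302 sets of 5 mice examined, 22 held a mouse whose gap to the next exceeded Dixon's critical value of 0.71 times the range. That value is set for about 1 in 20 sets of independent, normally distributed values. The sets here share the same mice, CPM need not be normally distributed, and Spp1, Igha and Ifit3 were named after their values were seen. The number flagged is therefore not compared with 1 in 20. For 16 of the 22 sets the value was the level of a gene in CPM. Among leukocyte genes, Fcgr1 was low in PF mouse 5 at 1.53, Adgre1 low in SO mouse 1 at 4.13, Slc11a1 high in PF mouse 1 at 5.29, Il2rb high in PF mouse 4 at 6.43, Ifit3 high in PF mouse 4 at 89 and Igha high in PF mouse 2 at 129. Spp1 was high in PF mouse 1 at 133. Of the genes of other lobes and of fat, Tgm4 was high in PF mouse 5 at 138 and in SO mouse 3 at 83.4, and Adipoq was high in SO mouse 5 at 66.8. The secretory gene 5430419D17Rik was high in PF mouse 1 at 6383. Of the metabolic genes, Elovl6 was high in PF mouse 5 at 19.4 and Cpt1a in PF mouse 4 at 135. Stk35 was high in PF mouse 4 at 28.9, Setd7 was low in PF mouse 2 at 114 and Zkscan3 was low in SO mouse 5 at 39.5.

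For the other 6 the value was the mean log2 CPM of a list. The monocyte list was low in SO mouse 1 at 1.19, the blood endothelium list high in SO mouse 5 at 2.82, and the luminal epithelium list high in SO mouse 1 at 7.92. The list of other prostate lobes and seminal vesicle was high in PF mouse 5 at -0.164, the leukocyte signalling list was high in SO mouse 5 at 2.08, and the collagen and matricellular list was low in SO mouse 3 at 4.81.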

How the results depend on the processing

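The number of genes called depended on the tool and on the mice. With edgeR it stayed at 0 with other scalings, filters, a robust fit, only PF and SO mice, all 30 mice in one fit and the replicate block, and with each mouse left out it ranged from 0 to 131, the latter without PF mouse 5. DESeq2 called 225 genes, 371 with only PF and SO mice, 141 with the replicate block and 380 at an adjusted p under 0.1, and in fits added after the data were seen 146, 65, 59, 306 and 434 without PF mice 1 to 5 and 135, 125, 122, 108 and 198 without SO mice 1 to 5. The cause was not tested. Scaling by library size alone moved the median of all genes to 0.017 and gave 998 higher and 143 lower genes at an unadjusted p under 0.05, where TMM gave 974 and 295. The change between 12 and 32 weeks had 44 genes in DESeq2 and 0 to 3 in edgeR with each mouse left out, 3 without PF mouse 5 at 12 weeks.

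No source says that equal mouse numbers mark a shared litter, cage or batch, so the number was not a block in the main fit. Deviations of same-numbered PF and SO mice had correlations from -0.179 to 0.321, 2 of 5 above 0.1. Their mean was 0.0571, against -0.014 for the other pairs, and whether such mice shared an origin was not tested. With the block edgeR called 0 genes, with 1290 at an unadjusted p under 0.05, and 118 of the 141 genes of DESeq2 were shared with its 225. Only 2 PF mice and 1 SO mouse correlated best with their own number.

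Of the 46 list medians, 9 changed sign under some alternative (adipocytes, cell division, luminal epithelium, mitochondrially encoded genes, neuroendocrine cells, other lobes, red blood cells, skeletal muscle and urethral epithelium), with adipocytes from -0.413 to 0.751 with a mouse left out. Of the 46, 4 moved by more than the spread between mice. The neutrophil median was 1.04 in DESeq2 (also with only PF and SO mice), 1.43 with only PF and SO mice in edgeR, 1.7 with all 30 mice, 1.18 without a filter, 0.604 with at least 10 counts in every mouse, 0.908 in DESeq2 with the block, and 1.36 to 2.54 with a mouse left out. The urethral list ranged from -0.136 to 0.42 with a mouse left out, other lobes were at -0.694 in DESeq2 with only PF and SO mice, and lymphoid tissue organisation was at 1.58 in DESeq2 with or without the LO mice, 1.44 with all 30 mice and 1.53 without a filter, where more of its genes were tested. Of the 105 named genes examined, 7 changed sign under some alternative. With the block, in edgeR and DESeq2, Adipoq was at 0.417 and 0.447, Tgm4 at -0.261 and -0.338 and Mki67 at 0.0279 and 0.0286, and Ptgs1 was at -0.0011 in DESeq2 with it. With a mouse left out Pbsn ranged from -0.315 to 0.194, Adipoq from -0.43 to 0.775, Spink1 from -0.165 to 0.0228, Mki67 from -0.243 to 0.0853, the Ptgs1 log2 fold change from -0.114 to 0.115, Spp1 from -0.0266 without PF mouse 1 to 3.22, and Tgm4 from -2.44 without PF mouse 5 to 2.43 without SO mouse 3. Genes with few read pairs, such as Cd3d and Ms4a1 in SO mice, have the least precise fold changes.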

Other observations

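Further lists gave the following values at 12 weeks. Of 7 monocyte genes 6 were above 0 and at an unadjusted p under 0.05, with a median log2 fold change of 0.9, and DESeq2 called Ly6c2 alone. The 6 became 2 without PF mouse 2 and 3 without PF mouse 3. Of 11 genes of lymphoid tissue organisation 6 passed the filter, 5 of them above 0, and DESeq2 called 1, Ccr7. For eosinophils 2 of 8 genes passed the filter, both above 0. DESeq2 called 1 that did not pass it, Siglecf, with a log2 fold change of 2.85 (DESeq2 adjusted p = 0.0347) at levels under 1 CPM. The mast cell list had 7 of 8 genes above 0 with a median of 0.376 at 12 weeks, and in the other mice at 32 weeks 7 of 8 with a median of 1.13.

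Of 9 genes of Schwann cells and nerve 7 were above 0 with a median of 0.208, of 20 growth factor genes 12 with a median of 0.119, of 10 urethral and proximal epithelial genes 6 with a median of 0.271, of 3 neuroendocrine genes 2 with a median of 0.0573, and of 4 genes of other prostate lobes and seminal vesicle 2 with a median of 0.0299. Red blood cell genes had 3 of 5 above 0 with a median of 0.0524.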
